A study of Mus musculus with 6 samples.

Results

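Splicing factor genes were described in mouse leukemia cells after treatment with panobinostat, a drug that inhibits histone deacetylases. The genes were all protein-coding mouse genes of the count table whose symbol starts with Srsf, Hnrnp, Snrp, Sf3a or Sf3b, which gave 53 of 27179 genes. They comprised 11 Srsf, 21 Hnrnp and 12 Snrp genes, with 3 Sf3a and 6 Sf3b genes that are treated together below as SF3. Proteins of small nuclear particles whose symbols start with Snrnp fall outside these prefixes and are described with the related genes.

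RNA came from a mouse leukemia on C57BL/6 labelled A/E9a;NRASG12D; A/E9a is a splice variant of the fusion of RUNX1 with RUNX1T1, and the rest of the name denotes mutant NRAS. Treated mice received panobinostat and control mice received vehicle, in both cases for 3 days. Leukemia cells positive for GFP and viable by propidium iodide were sorted from spleens, and each group had 3 libraries. Both groups carry the same leukemia, labelled as a single line, and the sources used here give neither the dose nor the age of the mice. The deposited counts of both groups are also labelled WT tumor cells. Nothing in the labels ties each library to its own mouse, so the p-values cover the spread among these libraries alone, and that spread may be technical.

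Pre-mRNA is spliced by the spliceosome, which is built anew on each intron from small nuclear ribonucleoprotein particles (snRNPs), each a small RNA with a ring of Sm proteins and particle-specific proteins. The U1 particle recognises the start of an intron and the U2 particle, with its SF3A and SF3B subcomplexes, the branch site near its end. SR proteins, which carry a domain rich in serine and arginine, mostly favour use of nearby exons, and hnRNP proteins package nascent RNA and often act against nearby splice sites. Mutations of SF3B1 and SRSF2 recur in human myeloid cancers.

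Libraries held 25794869 to 32571961 counts with panobinostat and 27259492 to 29548544 with vehicle. Levels below are CPM, counts relative to library size, after TMM scaling. Libraries are named by the number that opens their column, 1, 5 and 6 for panobinostat and 2, 3 and 4 for vehicle. Of all 12916 tested genes 11.3% were called higher and 9.72% lower at an edgeR adjusted p under 0.05, and 6605 had positive log2 fold changes. Of 8 genes listed as markers of the leukemia or its progenitor state all had positive log2 fold changes. Gata2 (660 CPM with panobinostat and 384 CPM with vehicle; edgeR adjusted p = 0.011) and Myb (516 CPM with panobinostat and 354 CPM with vehicle; edgeR adjusted p = 0.014) rose. The others did not pass: Runx1t1 averaged 615 CPM with panobinostat and 358 CPM with vehicle, Kit 238 CPM with panobinostat and 216 CPM with vehicle, and the leukocyte genes Ptprc and Itgam 3.18 and 0.360 CPM with panobinostat and 2.75 and 0.296 CPM with vehicle. Hemoglobin genes held 3.22% to 6.72% of counts with panobinostat and 0.614% to 0.847% with vehicle. Of 7 tested erythroid markers 5 rose, and their summed level was 21854 to 49952 CPM with panobinostat and 4733 to 5846 CPM with vehicle. Summed macrophage markers ran from 17.9 to 57.9 CPM with panobinostat and from 9.29 to 14.8 CPM with vehicle, with 2 of 7 tested genes called higher. Summed plasmacytoid dendritic cell markers, of which Bst2 alone of 5 tested genes was called higher, ran from 162 to 249 CPM with panobinostat and from 78.4 to 91.8 CPM with vehicle. No called gene was found among the tested markers of T cells (1), B and plasma cells (7), NK cells (1) and neutrophils (5), whose summed levels did not exceed 26.0 CPM per list in any library. Ly6g, a defining neutrophil gene, had 0 counts in the panobinostat libraries. The summed neutrophil markers overlapped between the groups, at 2.28 to 8.26 CPM with panobinostat and 3.85 to 8.65 CPM with vehicle. Among 35 cell cycle genes (S phase, G2 and mitosis) 24 fell, and their summed level was 4787 to 6577 CPM with panobinostat and 7658 to 9613 CPM with vehicle. The part of these shifts in the results below was not tested. A fit without hemoglobin genes called as many splicing factors lower (11, with 9.69% of all tested genes). That fit removed only the counts of those genes from the same libraries, so it cannot address a change in the mix of cells.

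With panobinostat 7 of 11 tested snRNP protein genes fell, by 0.40 to 0.55 on the log2 scale, while no SR protein gene passed the test. Of the 53 genes 51 were abundant enough to test, and 11 of these fell and 0 rose by edgeR's quasi-likelihood test, with Benjamini-Hochberg adjustment over all 12916 tested genes and a threshold of 0.05. Of all tested genes 9.72% were called lower and 11.3% higher, against 21.6% of the splicing factors called lower. Among tested genes averaging 40 CPM or more, which is nearer to the level of most of these genes, 12.5% were called lower. Among the other families 3 of 21 Hnrnp genes, 1 of 9 SF3 genes and 0 of 10 Srsf genes fell. Median log2 fold changes (panobinostat over vehicle) were -0.43 for Snrp, -0.27 for SF3, -0.24 for Hnrnp and -0.21 for Srsf, beside 0.01 for all tested genes. No member changed 2-fold in either direction. In bulk RNA, fewer cells of a type and less RNA per cell cannot be told apart. The difference between families was not tested.

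**Figure D1:**
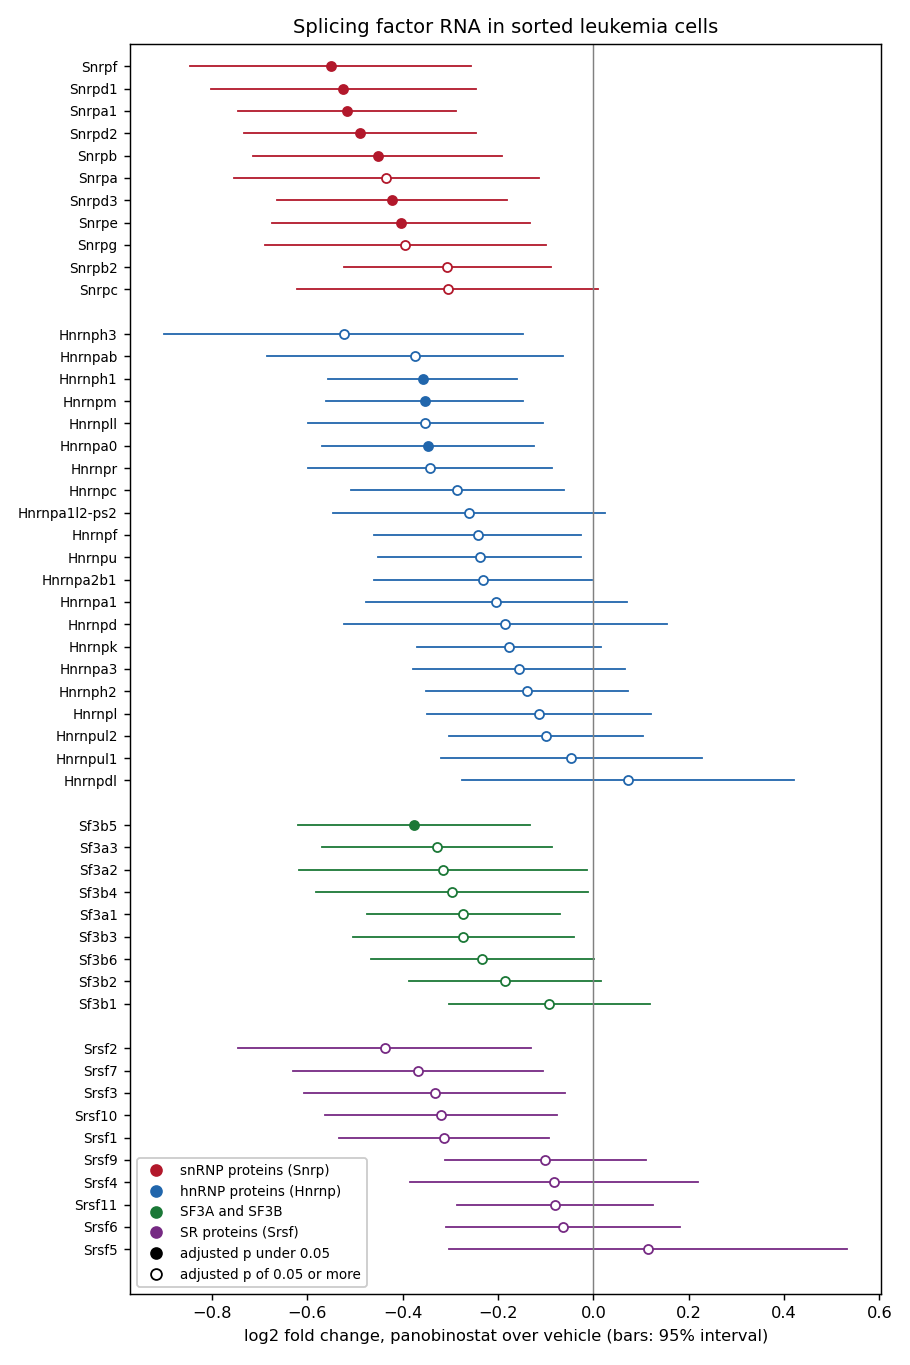
Log2 fold change of panobinostat over vehicle for the 51 tested splicing factor genes, by family, with 95% intervals from edgeR and 3 libraries per group. Filled points passed an adjusted p of 0.05, which 7 Snrp, 3 Hnrnp, 1 SF3 and 0 Srsf genes did, and 49 of 51 points lie below 0, as do 48.9% of all tested genes.

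These small differences rest on few libraries. Without vehicle library 2 or vehicle library 4, 0 of 51 splicing factors were called lower, where 1.37% and 1.02% of all tested genes were. Without vehicle library 3 the number was 1 (3.89% of all tested genes), without panobinostat library 5 or 6 it was 3 in each fit (4.9% and 7.11%), and without panobinostat library 1 it was 27 (14.3%). DESeq2 called 26 of them lower, where 12.4% of all tested genes were, and limma-voom with sample quality weights called 31, where 16.7% were. Scaling by library size alone called 32, with 16.0% of all tested genes; it moved the median log2 fold change over all tested genes to -0.10, against 0.01 with TMM scaling, and that of the splicing factors to -0.41, against -0.31. Under it 35.5% of all calls were higher, against 53.8% with TMM scaling. Limma-voom and robust dispersion each called 12 (9.82% and 9.74% of all tested genes). The count was 11 with DESeq2's size factors in edgeR (9.59%), upper quartile scaling (10.2%), no filter on low counts (6.34%) and a minimum of 1 CPM in 3 libraries (10.3%). No splicing factor was called higher in any of the 16 alternative fits.

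The Sm ring proteins held most of the called genes. Of 8 genes annotated as Sm proteins 7 were tested, and Snrpb, Snrpd1, Snrpd2, Snrpd3, Snrpe and Snrpf fell. Snrpd2 (Entrez gene 107686; GRCm38 chromosome 7, 19149445 to 19152734) had 86.5, 69.2 and 79.2 CPM in panobinostat libraries 1, 5 and 6, against 105, 109 and 115 CPM in vehicle libraries 2, 3 and 4. All panobinostat libraries lay below all vehicle libraries, and the log2 fold change was -0.49 ± 0.10 (SE; edgeR adjusted p = 0.019). Snrpd1 (Entrez gene 20641; chromosome 18, 10617796 to 10628230) had 80.6, 62.3 and 77.5 CPM with panobinostat, against 107, 98.0 and 112 CPM with vehicle. Its log2 fold change was -0.52 ± 0.12 (SE; edgeR adjusted p = 0.024), and again the groups did not overlap.

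Snrpf, whose product sits in the ring beside those of Snrpe and Snrpd2 (Entrez gene 69878; chromosome 10, 93583029 to 93589658), was the least abundant tested Sm gene per length. It had 17.1, 13.5 and 16.0 CPM with panobinostat, against 22.8, 21.8 and 23.8 CPM with vehicle, and the largest decrease of the family at -0.55 ± 0.13 (log2, SE; edgeR adjusted p = 0.024). By gene span it overlaps Ccdc38, as Snrpd3 overlaps Gucd1, Snrpa1 overlaps Gm45213 and Hnrnpm overlaps March2. Without a known strand setting, reads in any bases shared by such pairs cannot be separated, and such bases were not measured. Snrpb, which encodes the SmB and SmB′ proteins (Entrez gene 20638; chromosome 2, 130171636 to 130179382), had 224, 173 and 198 CPM with panobinostat, against 276, 265 and 274 CPM with vehicle (log2 fold change -0.45 ± 0.11 SE; edgeR adjusted p = 0.030). The vehicle libraries were close together, and panobinostat library 5 was the lowest of all. Snrpd3 and Snrpe averaged 76.6 ± 7.95 and 60.5 ± 7.78 CPM with panobinostat and 103 ± 5.70 and 80.1 ± 5.14 CPM with vehicle (SD, n = 3 each; edgeR adjusted p = 0.030 and 0.046). Snrpg did not pass, at 78.6 ± 12.3 CPM with panobinostat and 103 ± 4.77 CPM with vehicle (log2 fold change -0.39, 95% interval -0.69 to -0.10; edgeR adjusted p = 0.063). Snrpn, the imprinted paralog of Snrpb that shares a transcript with Snurf, had 1 count in all 6 libraries together and was not tested.

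The proteins specific to U1 and U2 followed with 1 call. Snrpa1, a protein specific to the U2 particle (Entrez gene 68981; chromosome 7, 66060336 to 66074587), had 58.5, 53.9 and 65.2 CPM with panobinostat, against 85.9, 80.8 and 87.4 CPM with vehicle. The gap between the groups was wider than the range within either, the log2 fold change was -0.52 ± 0.10 (SE), and its edgeR adjusted p of 0.014 was the smallest among the splicing factors. Snrpa1 was called in 14 of 16 alternatives, the exceptions being the fits without vehicle library 2 (adjusted p = 0.061) and without vehicle library 4 (0.076). Its partner Snrpb2, which binds U2 RNA together with it, averaged 49.5 ± 3.61 CPM with panobinostat and 61.3 ± 3.01 CPM with vehicle and missed the threshold (edgeR adjusted p = 0.055). For the U1 particle, Snrpa, which binds a stem-loop of U1 RNA, averaged 67.4 ± 12.6 CPM with panobinostat and 91.1 ± 1.68 CPM with vehicle (edgeR adjusted p = 0.062). Snrpc, which helps U1 hold the intron start, averaged 42.1 ± 7.43 CPM with panobinostat and 52.1 ± 1.88 CPM with vehicle (edgeR adjusted p = 0.15). In all 11 tested Snrp genes the panobinostat libraries lay below the vehicle libraries, where 22.7% of all tested genes separated that way, 21.9% separated with panobinostat higher and 44.6% separated in either direction, and in all 11 panobinostat library 5 was the lowest.

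**Figure D2:**
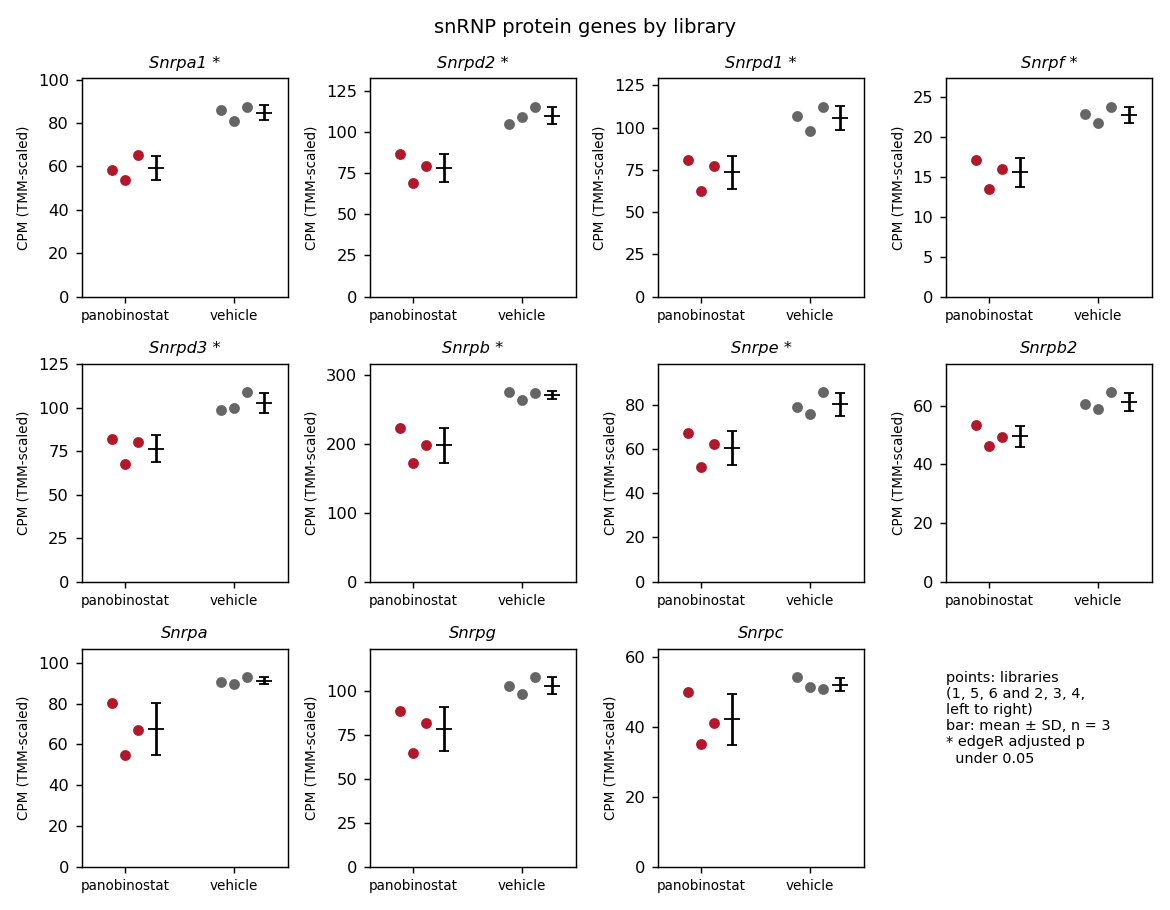
CPM (TMM-scaled) of the 11 tested Snrp genes in each library, panobinostat left and vehicle right, with the mean and SD of 3 libraries beside the points; an asterisk marks an edgeR adjusted p under 0.05. In each panel all 3 panobinostat points lie below all 3 vehicle points, and the middle panobinostat point, library 5, is the lowest.

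SF3A and SF3B, the U2 subcomplexes that hold the branch site, had lower values with a single call. That share, 11.1% of the 9 genes, was near the 9.72% called lower among all tested genes. Sf3b5, a small SF3B subunit (Entrez gene 66125; chromosome 10, 13008450 to 13009183), had 52.8, 41.9 and 46.8 CPM with panobinostat, against 61.7, 60.7 and 61.4 CPM with vehicle. The vehicle libraries were close together and above all panobinostat libraries, and Sf3b5 fell by 0.38 on the log2 scale (SE 0.10; edgeR adjusted p = 0.042). Its call did not hold when panobinostat library 5 or 6 or vehicle library 2, 3 or 4 was left out (adjusted p of 0.10 to 0.14). The 3 Sf3a genes had close log2 fold changes between -0.33 and -0.27, with the lowest for Sf3a3, a zinc finger subunit (81.4 ± 8.60 CPM with panobinostat and 102 ± 5.11 CPM with vehicle; edgeR adjusted p = 0.060). Sf3b1, the large subunit that clamps the branch site helix, had 503, 524 and 557 CPM with panobinostat, against 554, 542 and 592 CPM with vehicle. The groups overlapped, and the log2 fold change was -0.09 (95% interval -0.30 to 0.12; edgeR adjusted p = 0.49), the nearest to 0 of the 9 genes. Sf3b2, which binds RNA beside the branch site, and Sf3b3, a large scaffold subunit, averaged 302 ± 4.82 and 385 ± 34.3 CPM with panobinostat and 343 ± 20.3 and 465 ± 21.4 CPM with vehicle, and neither passed (edgeR adjusted p = 0.17 and 0.091). Sf3b4 and Sf3b6 had log2 fold changes of -0.30 and -0.23 and did not pass either (edgeR adjusted p = 0.12 and 0.14).

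hnRNP genes were the largest family and had 20 of 21 log2 fold changes below 0, with 3 calls. Of tested genes averaging 40 CPM or more, 53.1% had log2 fold changes below 0. The share of hnRNP genes called lower, 14.3%, was near the 12.5% among those genes (9.72% of all tested genes). Hnrnph1, which binds runs of G (Entrez gene 59013; chromosome 11, 50375257 to 50386528), had 302, 295 and 323 CPM with panobinostat, against 394, 383 and 403 CPM with vehicle (log2 fold change -0.36 ± 0.08 SE; edgeR adjusted p = 0.027). Hnrnpm (Entrez gene 76936; chromosome 17, 33646233 to 33685458) had 390, 366 and 411 CPM with panobinostat, against 484, 493 and 514 CPM with vehicle (log2 fold change -0.35 ± 0.09 SE; edgeR adjusted p = 0.032). Hnrnpa0, which binds AU-rich RNA (Entrez gene 77134; chromosome 13, 58125879 to 58128556), had 310, 282 and 299 CPM with panobinostat, against 410, 369 and 353 CPM with vehicle (log2 fold change -0.35 ± 0.10 SE; edgeR adjusted p = 0.041). In none of these 3 genes did the groups overlap. Of all tested genes 22.7% separated with panobinostat lower, as did 27.4% of those averaging 40 CPM or more. All 3 calls were lost without vehicle library 2, 3 or 4 or without panobinostat library 5.

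Relatives of the called hnRNP genes, and the other hnRNP genes given next, did not pass the threshold. Of the relatives of Hnrnph1, Hnrnph3 had the lowest fold change of the family (6.39 ± 0.354 CPM with panobinostat and 9.19 ± 1.18 CPM with vehicle; log2 fold change -0.52, edgeR adjusted p = 0.057). Hnrnpf, also a binder of G runs, averaged 1011 ± 59.9 CPM with panobinostat and 1197 ± 47.0 CPM with vehicle (log2 fold change -0.24, edgeR adjusted p = 0.10), and the X-linked Hnrnph2 had a log2 fold change of -0.14 (95% interval -0.35 to 0.07). Hnrnpab, a binder of AU-rich RNA, averaged 571 ± 82.8 CPM with panobinostat and 740 ± 65.6 CPM with vehicle, short of the threshold (edgeR adjusted p = 0.084). Its relatives Hnrnpd and Hnrnpdl had log2 fold changes of -0.18 and 0.07, with intervals of -0.52 to 0.15 and -0.28 to 0.42. Hnrnpul1, which also takes part in DNA repair, was at 275 ± 21.9 CPM with panobinostat and 284 ± 34.3 CPM with vehicle (log2 interval -0.32 to 0.23). The signs of Hnrnpdl and Hnrnpul1 changed between alternatives.

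Hnrnpa2b1, which binds and sorts many RNAs, was the most abundant member per length. On the scale of CPM per kilobase of the median GENCODE basic transcript it averaged 1053 with panobinostat and 1236 with vehicle, followed by Hnrnpa1, a repressor of splice sites, at 522 and 601, in the same order. In CPM, Hnrnpa2b1 had 1820, 1613 and 1768 with panobinostat, against 1946, 2013 and 2149 with vehicle. These values did not overlap, yet the gene missed the threshold (log2 fold change -0.23, 95% interval -0.46 to -0.0038; edgeR adjusted p = 0.13). Hnrnpa1 did overlap between the groups (log2 interval -0.48 to 0.07; edgeR adjusted p = 0.25). Hnrnpa1l2-ps2, annotated by RefSeq as protein-coding but named as a pseudogene of this family, had 22.6% to 23.3% of the CPM of Hnrnpa1 with panobinostat and 23.5% to 24.2% with vehicle. Reads of this pair cannot be assigned with certainty, so its value is not independent of that of Hnrnpa1. The other hnRNP genes (Hnrnpa3, Hnrnpc, Hnrnpk, Hnrnpl, Hnrnpll, Hnrnpr, Hnrnpu and Hnrnpul2) had log2 fold changes from -0.35 for Hnrnpll to -0.10 for Hnrnpul2, with edgeR adjusted p from 0.053 to 0.44.

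SR protein genes did not reach the threshold, with 0 of 10 called in edgeR and 5 lower at an unadjusted p under 0.05. Of all 12916 tested genes 2288 were lower at that unadjusted p. DESeq2 called 5 SR genes lower (12.4% of all genes it tested), limma-voom 1 (9.82%) and limma-voom with sample quality weights 5 (16.7%). The SR gene values split into a pair of sets of 5 genes, a division made after the values were seen. Srsf1, Srsf2, Srsf3, Srsf7 and Srsf10 had log2 fold changes from -0.44 to -0.31, and in each of them the panobinostat libraries lay below the vehicle libraries, as in 22.7% of all tested genes and 27.4% of those averaging 40 CPM or more. Since the sets were formed from these values, this separation is a description. Srsf4, Srsf5, Srsf6, Srsf9 and Srsf11 had log2 fold changes from -0.10 to 0.11, and in each of them the groups overlapped. The difference between these sets was not tested.

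In the first set, Srsf2, which binds exonic enhancers and is mutated in human myeloid cancers, had 500, 387 and 451 CPM with panobinostat, against 683, 550 and 579 CPM with vehicle (log2 fold change -0.44, 95% interval -0.75 to -0.13; edgeR adjusted p = 0.054). By gene span Srsf2 overlaps Mfsd11 and Mettl23. Reads in any bases shared with them cannot be assigned without a strand setting, and such bases were not measured. Srsf1, the SR protein first purified as a splicing factor, had 567, 508 and 576 CPM with panobinostat, against 667, 666 and 718 CPM with vehicle (log2 fold change -0.31, 95% interval -0.53 to -0.09; edgeR adjusted p = 0.053). Srsf7 averaged 245 ± 28.1 CPM with panobinostat and 316 ± 19.5 CPM with vehicle (edgeR adjusted p = 0.056). Its close relative Srsf3, which like it also takes part in RNA export, averaged 435 ± 55.1 CPM with panobinostat and 548 ± 33.1 CPM with vehicle (edgeR adjusted p = 0.083). All 5 were called lower without panobinostat library 1, the sole library left out for which an SR gene was called.

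In the second set, Srsf5 had 393, 373 and 320 CPM with panobinostat, against 430, 289 and 284 CPM with vehicle. Vehicle library 2 was the highest of the 6 and the other vehicle libraries the lowest, so the wide interval (-0.30 to 0.53; log2 fold change 0.11, edgeR adjusted p = 0.67) includes changes in both directions. Srsf6 had 422, 343 and 372 CPM with panobinostat, against 417, 380 and 392 CPM with vehicle (log2 interval -0.31 to 0.18). Srsf12 had 5 counts in all libraries together and was not tested.

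**Figure D3:**
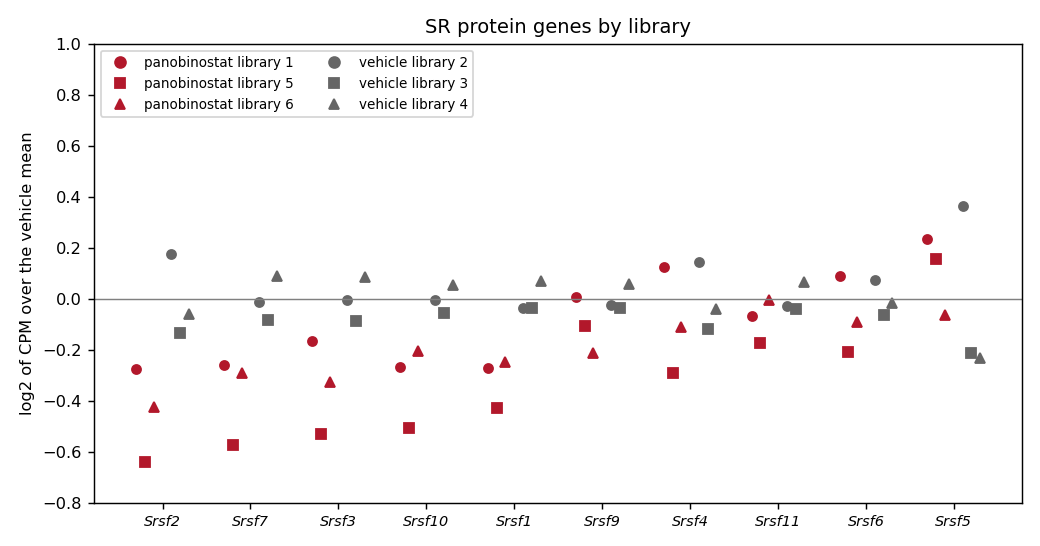
Log2 ratio of CPM to the mean of the vehicle libraries for the 10 tested SR protein genes, ordered by fold change, with panobinostat libraries left and vehicle libraries right of each tick. The panobinostat points of Srsf2, Srsf7, Srsf3, Srsf10 and Srsf1 lie below the vehicle points, and those of the other genes overlap them.

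In 47 of the 51 tested members panobinostat library 5 was the lowest of its group, compared with 4670 of 12916 tested genes. The mean log2 CPM difference of the Snrp genes from their vehicle mean was -0.29, -0.64 and -0.40 in panobinostat libraries 1, 5 and 6, and between -0.05 and 0.06 in the vehicle libraries. For the SR genes these differences were -0.08, -0.33 and -0.19 with panobinostat and between -0.08 and 0.07 with vehicle, so panobinostat library 1 lay at the edge of the vehicle range. The summed CPM of all 53 members was 15792, 14039 and 15613 in panobinostat libraries 1, 5 and 6, against 18586, 17097 and 18014 in vehicle libraries 2, 3 and 4. Hnrnp genes made up most of each sum, with 8982 to 9981 CPM with panobinostat and 10818 to 11735 CPM with vehicle. The groups did not overlap in either sum.

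**Figure D4:**
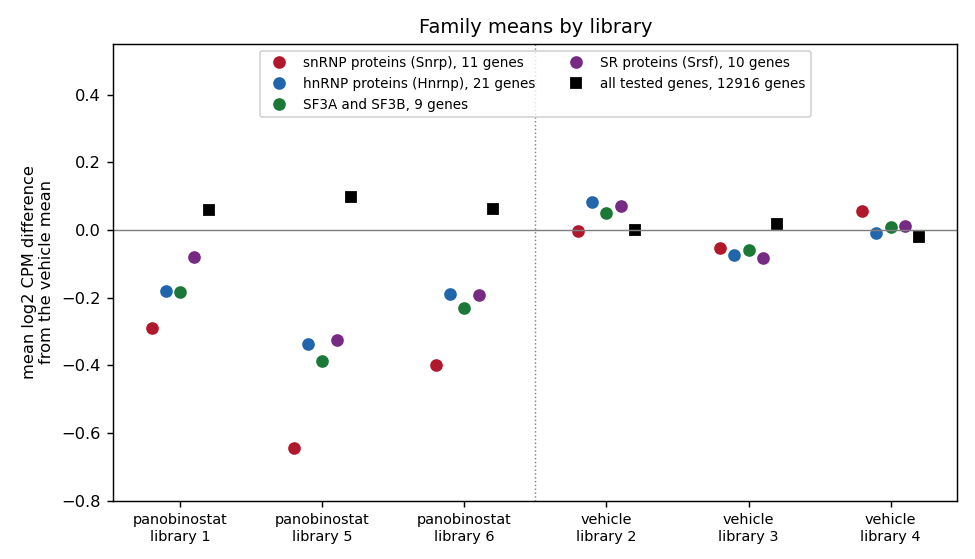
Mean log2 CPM difference from the vehicle mean over the tested genes of each family, by library, panobinostat left of the dotted line and vehicle right of it. Snrp genes are the lowest family in each panobinostat library, at -0.29, -0.64 and -0.40, while the mean of all 12916 tested genes stays between 0.06 and 0.10 in these libraries.

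Promoter sequence is shown for 4 members: Snrpa1 and Snrpf, the Snrp genes with the smallest p and the largest decrease, Hnrnpa0, a called hnRNP gene, and Srsf6, an SR gene with overlapping groups. The sequences are from RefSeq (GRCm38.p6) and run 5′ to 3′ on the strand of the gene up to the annotated start, or for Snrpf up to base 49 before it, next to an annotated exon. Capitals mark matches on either strand to the GC box (GGGCGG) or the CCAAT box (CCAAT).
Snrpa1, chr7:66060086-66060335, plus strand: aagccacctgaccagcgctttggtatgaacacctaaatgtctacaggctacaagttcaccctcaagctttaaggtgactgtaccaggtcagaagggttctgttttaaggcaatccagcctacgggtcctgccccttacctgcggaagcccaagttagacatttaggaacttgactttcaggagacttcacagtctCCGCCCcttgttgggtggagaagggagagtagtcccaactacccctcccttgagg
Snrpf, chr10:93589707-93589908, minus strand: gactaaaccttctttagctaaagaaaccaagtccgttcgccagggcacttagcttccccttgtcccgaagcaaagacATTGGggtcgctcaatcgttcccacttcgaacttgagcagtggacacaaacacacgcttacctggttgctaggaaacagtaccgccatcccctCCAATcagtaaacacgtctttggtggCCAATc
Hnrnpa0, chr13:58128557-58128806, minus strand: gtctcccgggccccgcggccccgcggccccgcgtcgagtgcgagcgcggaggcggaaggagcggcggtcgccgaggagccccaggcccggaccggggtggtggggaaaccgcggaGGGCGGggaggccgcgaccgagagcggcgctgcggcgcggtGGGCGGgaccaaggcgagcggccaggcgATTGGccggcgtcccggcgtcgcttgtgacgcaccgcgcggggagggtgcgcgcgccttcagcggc
Srsf6, chr2:162931258-162931507, plus strand: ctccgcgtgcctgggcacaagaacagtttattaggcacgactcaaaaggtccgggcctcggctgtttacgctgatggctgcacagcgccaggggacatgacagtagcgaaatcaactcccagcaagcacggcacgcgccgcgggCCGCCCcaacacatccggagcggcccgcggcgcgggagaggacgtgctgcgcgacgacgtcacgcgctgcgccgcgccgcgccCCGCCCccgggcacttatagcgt

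The table of promoters held 47 of the 53 members, with 64 windows of 250 bases before a start, since some genes have several starts whose windows can overlap. Entries were missing for Hnrnpll, Hnrnpul2, Sf3b4, Sf3b5, Snrpb and Snrpd1. A GC box was present in 65.6% of the members' windows and in 32.7% of all 32851 windows of the table. It was in 13 of 14 Srsf windows, 20 of 28 Hnrnp windows, 4 of 8 SF3 windows and 5 of 14 Snrp windows; 4 of those 14 windows belong to Snrpn. CCAAT was in 43.8% of members' windows and 33.8% of all windows, with 18 of 28 Hnrnp windows holding it. The ETS sequence CCGGAAGT was in 14.1% of members' windows and 2.88% of all, and in 0 of 14 Snrp windows. For Srsf4 and Sf3b2 it was counted in a pair of nearly identical windows each. The E-box CACGTG was in 7.81% and 6.02%, the palindromic NRF1 motif in 1.56% and 0.782%, and TATAAA in 10.9% and 12.4%, members first. Matches were counted on both strands, and motifs may overlap. These matches describe letters in the sequence and carry no statement about binding.

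Among 172 other splicing genes in 6 related lists 166 were tested, of which 28 (16.9%) fell and 6 rose, beside 9.72% lower and 11.3% higher among all tested genes. Of 20 genes for assembly of snRNPs 7 (35.0%) fell. Gemin8 of the SMN complex, which loads Sm proteins onto small nuclear RNA, had 17.4, 12.9 and 12.7 CPM with panobinostat, against 26.5, 25.1 and 25.4 CPM with vehicle (log2 fold change -0.84 ± 0.15 SE; edgeR adjusted p = 0.012). Prmt5, which methylates Sm proteins, and its partner Wdr77 both fell by 0.44 or 0.45 on the log2 scale (edgeR adjusted p = 0.023 and 0.029). Smn1, Gemin4, Gemin6 and Ncbp1 were the other called genes of this list.

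Of 29 tested genes for Snrnp-named proteins, Lsm proteins and the tri-snRNP 9 (31.0%) fell and 1 rose. Among all tested genes 9.72% were called lower and 11.3% higher. Lsm8, which defines the nuclear Lsm ring on U6 RNA, had 37.7, 37.5 and 39.9 CPM with panobinostat, against 55.4, 54.6 and 56.7 CPM with vehicle (log2 fold change -0.54 ± 0.08 SE; edgeR adjusted p = 0.0083). Ppih, a cyclophilin of the tri-snRNP, and Lsm5 of the same ring fell by 0.70 and 0.68 (edgeR adjusted p = 0.016 and 0.020). Prpf6, a tri-snRNP bridge, was the gene that rose, at 104 CPM with panobinostat and 85.6 CPM with vehicle (edgeR adjusted p = 0.043).

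Beside 9.72% lower and 11.3% higher among all tested genes, SR-related proteins and SR kinases held 23 tested genes, of which 0 fell and 1 rose. That gene was Clk1, a kinase that phosphorylates SR proteins, with 249, 219 and 193 CPM with panobinostat, against 145, 172 and 170 CPM with vehicle (log2 fold change 0.44 ± 0.12 SE; edgeR adjusted p = 0.044). Its call was lost in 7 alternatives, library size alone (0.070) and the fits without any 1 vehicle library (0.096 to 0.14) among them. Of 19 factors of the intron end and U2, 1 (5.26%) fell and 1 rose. Phf5a, an SF3B subunit outside the prefixes used here, was the gene that fell (58.9 CPM with panobinostat and 77.2 CPM with vehicle; edgeR adjusted p = 0.049). Zrsr1, a relative of the small U2AF subunit, rose to 34.8, 22.3 and 23.9 CPM with panobinostat, against 12.3, 14.3 and 13.3 CPM with vehicle (log2 fold change 1.02 ± 0.19 SE; edgeR adjusted p = 0.013).

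Of 36 tested genes of the Prp19 complex and catalytic steps 4 (11.1%) fell and 1 rose, a share near that of all tested genes (9.72% lower), and the median log2 fold change was -0.08. Prpf19, the ubiquitin ligase of the complex, fell to 189 CPM with panobinostat, against 263 CPM with vehicle (edgeR adjusted p = 0.017), and Ppil1 and Ctnnbl1 fell by 0.41 and 0.37 on the log2 scale. Of 39 tested other splicing regulators 7 (17.9%) fell and 2 rose, beside 9.72% lower and 11.3% higher among all tested genes. Mbnl3, a muscleblind protein, had 81.5, 87.1 and 94.6 CPM with panobinostat, against 150, 135 and 144 CPM with vehicle (log2 fold change -0.71 ± 0.09 SE; edgeR adjusted p = 0.0054), and was called in every alternative fit. Every other called gene of the related lists lost its call in at least 1 of the fits that left out a library. Pcbp3, a poly(C)-binding protein, rose by 0.85 ± 0.13, and Ilf2 fell by 0.49 ± 0.10 (log2, SE; edgeR adjusted p = 0.0089 and 0.016).

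**Figure D5:**
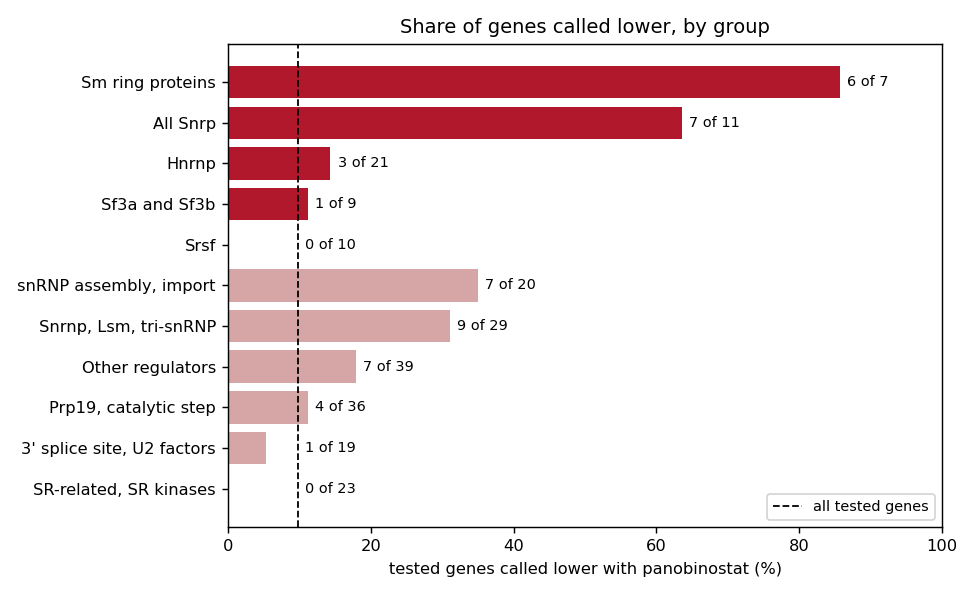
Share of tested genes called lower with panobinostat for the splicing factor families (dark bars) and the related lists (light bars), with counts beside each bar. The dashed line is the share among all tested genes, 9.72%; 6 of 7 Sm genes and 0 of 10 Srsf genes were called.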

How the data were processed

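Whole-number read counts per gene, by Entrez gene ID, were deposited by the authors in 1 table with 1 column per library. The submitters' processing notes name the build mm10, HISAT2 2.1.0, featureCounts, Subread 2.0.0, cutadapt 2.1, bcl2fastq 2.17.1.14, FastQC 0.11.6 and limma. The sources used here do not give the annotation, the strand setting or how multiply placed reads were counted. Libraries were prepared with a TruSeq kit from total RNA, per the labels' protocols. Reads in any bases shared by overlapping genes, and reads of processed copies, therefore cannot be assigned with certainty. By gene span 15 members overlap another protein-coding gene in GENCODE M21, and shared exon bases were not measured.

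Names came from RefSeq for GRCm38.p6 by gene ID for 25275 of 27179 genes. Columns name the group but no replicate, and 0 columns were left unused. Their names also carry numbers that the labels do not explain. These are 1-4-1, 5-3-3 and 6-4-3 for panobinostat and 2-1-3, 3-1-3 and 4-2-3 for vehicle. No libraries were duplicates (the lowest chi-square of a pair, over its degrees of freedom, was 14.0). Genes were filtered with filterByExpr, scaled by TMM and tested with edgeR 4.0.16 in R 4.3.3 (quasi-likelihood, treatment as the only term, Benjamini-Hochberg over 12916 genes). The common biological coefficient of variation was 0.195. Standard errors are the log2 fold change over the square root of F, and 95% intervals use the fit's degrees of freedom. The script was tested on simulated data with planted changes larger than that of any member. That test does not cover changes as small as those of the members. An exact permutation test of 3 against 3 libraries cannot go below p = 0.1.

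Named members, by family, were the called genes with the smallest p (up to 4), the 2 highest and 2 lowest fold changes and the 2 highest levels, and up to 3 called genes per related list; other genes named were chosen with their values in view, so that members are accounted for. Members, lists and rules were chosen with earlier results of these data known. The 16 alternatives comprised 3 normalizations, 2 filters, DESeq2 1.42.0, limma-voom 3.58.1 with and without quality weights, robust dispersion, a fit without hemoglobin genes and leaving out each library.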

Additional observations from a re-analysis of the deposited data

How the results depend on the processing

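No paired analysis was possible because the count columns do not carry the replicate numbers of the labels, so the fit with a replicate block was not run. Leaving out 1 library at a time gave 135 to 1864 genes called lower and 303 to 2192 called higher over all genes. Over the splicing factors it gave 0 to 27 lower, with 0 to 11 for Snrp, 0 to 6 for Hnrnp, 0 to 5 for SF3 and 0 to 5 for Srsf, and 1 to 45 lower and 0 to 14 higher among the related genes. Library size alone gave 2065 genes lower over all genes, 32 splicing factors (11 Hnrnp, 6 SF3 and 5 Srsf among them) and 55 lower and 2 higher related genes, with median log2 fold changes of -0.10 for all genes, -0.41 for all members, -0.31 for Srsf, -0.34 for Hnrnp and -0.38 for SF3. Limma-voom with quality weights gave 2162 lower and 2358 higher genes, 31 splicing factors (11 Snrp, 9 Hnrnp, 6 SF3 and 5 Srsf) and 51 lower and 11 higher related genes. DESeq2 called 26 splicing factors (8 Hnrnp, 3 SF3 and 5 Srsf among them), limma-voom and robust dispersion each called 1 Srsf gene, and the fit with no filter called 2 related genes higher. Hnrnpdl changed sign with library size alone (-0.0348) and ranged from -0.0249 to 0.24 without 1 library, Hnrnpul1 with quality weights (0.0068) and from -0.11 to 0.0552 without 1 library, and Srsf6 ranged from -0.15 to 0.0022 without 1 library. For the 41 named genes, 528 alternative values kept their side of the threshold and direction, 85 lost the call, 37 gained it and 6 changed sign; the cause was not tested. All alternatives kept the family medians below 0. Snrpn and Srsf12, with 1 and 5 counts in total, could not be compared.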
